A study of Mus musculus with 20 samples.

Results

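Brachyury (symbol T), Noto, Foxa1, Foxa2, Sox9, Sox5 and Sox6 were followed as the transcription factors of the notochord and of early cartilage. They are 7 of the 51789 genes in the deposited table and were found by their symbols; all 7 are annotated as protein coding. RNA was measured in the nucleus pulposus (NP), the soft core of the intervertebral disc, and in the annulus fibrosus (AF), the lamellar ring that encloses this core. The tissues came from BL6 mice aged 24 months and, per the protocols, were dissected under a microscope. The sample titles speak of NP cells and AF cells instead, and the protocols are followed here. Dosing by intraperitoneal injection had begun at 18 months and lasted 6 months, with DMSO every week in the vehicle mice and with MDL-800 in an equal amount of DMSO in the others, so that all 4 groups received DMSO. The series title ties MDL-800 to the activation of SIRT6, a chromatin deacylase. Each of the 4 groups (vehicle NP, MDL-800 NP, vehicle AF and MDL-800 AF) had 5 libraries, named here by the number in the sample title. The labels do not say whether the libraries of a group came from separate mice, so the p-values measure only the spread between these libraries, which may be technical.

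The notochord is the embryonic rod from which the cells of the NP descend, whereas the AF arises from the sclerotome of the somites. T is a T-box factor that marks the notochord, Noto is a homeobox factor of the early notochord and node, and Foxa1 and Foxa2 are forkhead factors that the notochord and its sheath depend on. SOX9 is the factor that cartilage cells need to switch on collagen II and aggrecan, and SOX5 and SOX6, which lack an activation domain of their own, act beside it on the same enhancers and are needed for the notochord sheath.

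Sequence next to the start sites is shown for 3 members, chosen to set a gene of very high NP level (T) beside the 2 genes whose upstream bases held a match to their own family's motif (Foxa1 and Sox6). Each stretch is the 250 bases before a start site in the RefSeq promoter table (build GRCm38.p6), read 5′ to 3′ on the gene's strand, and 6 of the 7 members had 13 such entries in all. Capitals mark matches, on either strand, to TAAACA (the forkhead core), AACAAT (the SOX core) or GGTGTGA (a T-box site). The forkhead and SOX cores can share letters, and no matches printed here do.
T, chr17:8434173-8434422, plus strand: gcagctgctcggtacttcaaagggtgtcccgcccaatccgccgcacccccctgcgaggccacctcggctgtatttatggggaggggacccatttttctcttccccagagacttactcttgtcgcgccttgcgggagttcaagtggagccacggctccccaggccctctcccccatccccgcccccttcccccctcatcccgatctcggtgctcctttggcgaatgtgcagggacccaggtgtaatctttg
Foxa1, chr12:57546112-57546361, minus strand: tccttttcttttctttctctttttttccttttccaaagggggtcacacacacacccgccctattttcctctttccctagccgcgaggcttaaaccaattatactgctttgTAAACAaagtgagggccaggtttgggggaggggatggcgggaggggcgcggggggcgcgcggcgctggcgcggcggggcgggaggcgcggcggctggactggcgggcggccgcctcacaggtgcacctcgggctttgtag
Sox6, chr7:115824711-115824960, minus strand: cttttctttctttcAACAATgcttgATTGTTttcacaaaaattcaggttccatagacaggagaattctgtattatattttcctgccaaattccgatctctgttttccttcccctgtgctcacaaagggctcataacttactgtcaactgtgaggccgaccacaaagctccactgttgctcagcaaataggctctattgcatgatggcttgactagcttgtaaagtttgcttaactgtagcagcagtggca
The T stretch held none of the 3 motifs and lies just before the annotated gene, at chr17:8434423-8442496. The Foxa1 stretch lies inside the annotated gene, at chr12:57540628-57546916, before a start site downstream of the gene's 5′ end. It held TAAACA once, 140 bases before that start, and the forkhead core was present in 12.0% of the 32851 promoters of the table. The Sox6 stretch, 1 of 6 for that gene and inside an intron of its longer transcripts, held AACAAT 236 bases before the start and its reverse complement ATTGTT 225 bases before it. The SOX core was present in 9.42% of promoters. Another Sox6 entry (chr7:115846141-115846390) held GGTGTGA 60 bases before the start, against 3.33% of promoters, and the entries of Noto, Foxa2 and Sox5 held none of these letters. A match is a description of the letters and not a site of binding.

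The values are FPKM (fragment counts corrected for transcript length and for the size of the library) divided by a factor for each library, called scaled FPKM below, and levels of different genes are compared on this per-length scale. Depth was estimated from the steps of low values at 12.7 to 22.1 megafragments a library, and between 13301 and 15671 genes reached 1 FPKM. A gene was tested where at least 5 of the 20 libraries reached 1 FPKM, which 16383 genes and 6 of the 7 members did; Noto did not. Genes were called higher or lower at an adjusted p under 0.05 from limma (Benjamini-Hochberg over all genes tested), on differences of log2(scaled FPKM + 1), a scale that understates the change of low genes. In bulk tissue, fewer cells of a type and less RNA per cell cannot be told apart.

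T (ENSMUSG00000062327) was among the most abundant messages of the NP. In the vehicle NP libraries 1, 2, 3, 5 and 6 it stood at 1193, 1203, 1254, 1701 and 1641 scaled FPKM, and its mean ranked 23 of 21780 protein-coding genes. In the vehicle AF libraries 8, 9, 10, 12 and 13 it stood at 212, 624, 361, 209 and 113. No AF library reached the lowest NP library, and AF library 9 was the highest of its group. T was higher in NP by 2.42 on the log2 scale (SE 0.38, limma adjusted p = 0.000335). Under MDL-800 the NP libraries 15, 18, 19, 20 and 22 held 1849.6, 1780.1, 1994, 2328 and 2011 scaled FPKM, where T ranked 12. The MDL-800 AF libraries 25, 27, 28, 29 and 30 held 446, 129.5, 163, 321 and 357. The tissue difference was 2.95 (SE 0.31, adjusted p = 1.84e-05), again without overlap.

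Noto (ENSMUSG00000068302, chr6:85423886-85428877, plus strand) was at the limit of detection. The deposited FPKM was 0.04, 0.15, 0.03, 0.07 and 0 in vehicle NP and 0.04, 0, 0, 0.03 and 0.12 in MDL-800 NP. It was 0, 0, 0.04, 0.04 and 0 in vehicle AF and 0, 0.04, 0.11, 0 and 0 in MDL-800 AF. A single fragment of Noto is worth an estimated 0.032 to 0.056 FPKM, so these values correspond to a few fragments at most. The mean log2 difference of NP from AF was 0.06 in vehicle libraries (exact two-sided permutation test, p = 0.167, n = 5 against 5) and 0.01 under MDL-800 (exact p = 0.683). A tissue difference in Noto was not detectable at this depth.

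Foxa1 (ENSMUSG00000035451, chr12:57540628-57546916, minus strand) was low in NP and lower in AF. It stood at 1.93, 1.92, 3.13, 2.26 and 2.05 scaled FPKM in vehicle NP and at 0.722, 0.376, 0.801, 0.552 and 0.170 in vehicle AF. Every NP library lay above every AF library, and NP library 3 stood apart from the others of its group. The difference was 1.10 (SE 0.16, limma adjusted p = 0.000172). With a pseudocount of 0.1 in place of 1 it was 2.02. Foxa1 reached 1 FPKM in all 10 NP libraries and in 0 of the 10 AF libraries, so it entered the tests through its NP values alone. Under MDL-800 the NP libraries held 3.08, 2.15, 2.05, 1.38 and 2.00 and the AF libraries 0.806, 0.626, 0.237, 0.646 and 0.778, also without overlap. That difference was 0.94 (SE 0.16, adjusted p = 0.000427), and 1.67 with a pseudocount of 0.1.

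Foxa2 (ENSMUSG00000037025, chr2:148042877-148046969, minus strand) differed less between the tissues than T. In vehicle NP it stood at 3.08, 2.15, 3.61, 3.54 and 3.34 scaled FPKM. In vehicle AF it stood at 1.69, 1.38, 2.26, 0.932 and 1.85. The groups overlapped through NP library 2, which lay below AF library 10. The difference was 0.67 (SE 0.17, limma adjusted p = 0.00582), and 1.13 after quantile normalization. Under MDL-800 the NP libraries held 4.10, 3.62, 3.62, 3.02 and 3.10 and the AF libraries 3.55, 2.50, 1.96, 2.26 and 1.15, with AF library 25 among the NP values. That difference was 0.49 (SE 0.18, adjusted p = 0.0351). The call under MDL-800 was lost in 6 of 10 library omissions and in 4 of 10 other analyses. The limma adjusted p ran from 0.000460 to 0.0874 over these 20, and the difference was 0.97 after quantile normalization.

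Sox9 (ENSMUSG00000000567, chr11:112782224-112787760, plus strand) was the most abundant of the 3 SOX genes in NP. It stood at 99.3, 127, 178, 126 and 159 scaled FPKM in vehicle NP, a mean of 138 ± 30.7 (SD, n = 5) that ranked 471 of 21780. In vehicle AF it stood at 53.9, 58.4, 75.3, 33.7 and 47.3. Each NP library exceeded each AF library, by 1.36 in the mean (SE 0.21, limma adjusted p = 0.000328). Under MDL-800 Sox9 read 153, 212, 165, 174 and 139 in NP, while the AF libraries read 64.2, 55.1, 72.1, 57.4 and 31.2. The difference was 1.61 (SE 0.21, adjusted p = 6.42e-05), without overlap.

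Sox6 (ENSMUSG00000051910, chr7:115470872-116038796, minus strand) followed at a lower level. In vehicle NP it stood at 90.0, 82.2, 58.9, 65.9 and 71.6 scaled FPKM, and in vehicle AF at 36.5, 45.8, 56.5, 40.9 and 33.1. The lowest NP library lay just above the highest AF library. The difference was 0.79 (SE 0.16, limma adjusted p = 0.00168). Under MDL-800 its NP values were 78.5, 60.0, 77.0, 71.3 and 68.7, and its AF values were 49.2, 35.5, 53.1, 37.9 and 55.4. That difference was 0.63 (SE 0.14, adjusted p = 0.00232), without overlap. Over 20 other analyses its limma adjusted p ran from 0.000650 to 0.0616.

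Sox5 (ENSMUSG00000041540, chr6:143828425-144781977, minus strand) was the member with near equal values in both tissues. In vehicle NP it stood at 20.7, 21.3, 13.3, 16.6 and 18.2 scaled FPKM, and in vehicle AF at 14.0, 12.4, 17.0, 18.2 and 16.5. The groups overlapped over most of their range. The difference was 0.19, with a 95% interval from -0.14 to 0.51 (limma adjusted p = 0.304). Under MDL-800 the NP values were 14.3, 18.1, 19.7, 17.8 and 21.1, and the AF values 17.7, 19.0, 13.8, 21.7 and 14.6. The difference was 0.07 (interval -0.24 to 0.38, adjusted p = 0.684). After quantile normalization, which moved the median of all genes from -0.08 to 0.19, the vehicle difference of Sox5 was 0.40 (adjusted p = 0.0389, in a range of 0.0389 to 0.543 over 20 other analyses). Of the genes annotated over Sox5, the antisense Sox5os1 alone shares exonic bases with it, and it was listed at 0 in all 20 libraries.

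**Figure D1:**
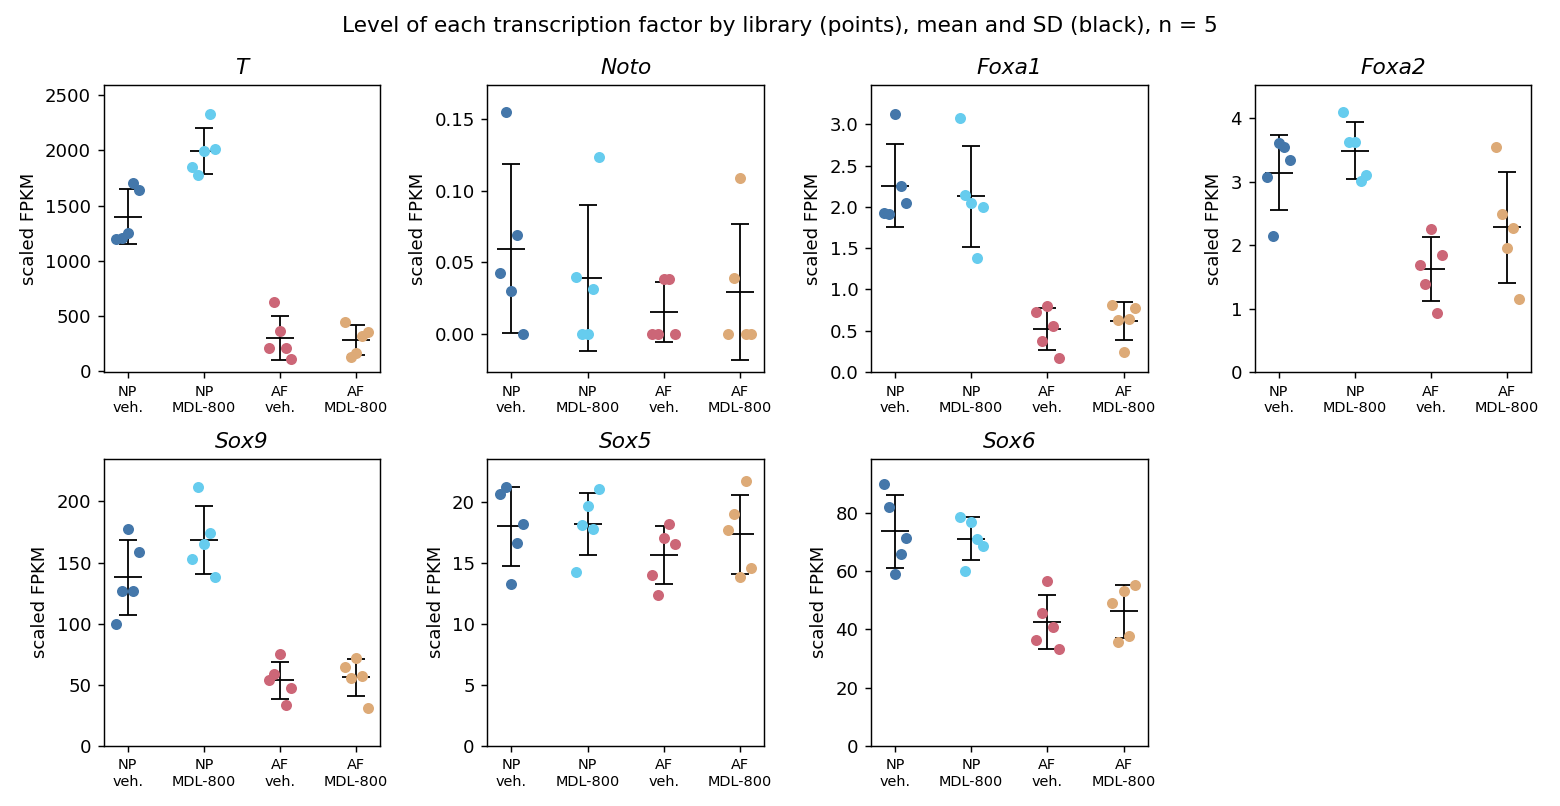
Scaled FPKM (vertical axis) of each of the 7 factors in the 5 libraries of each group (points), with the group mean and SD in black. T, Foxa1, Sox9 and Sox6 separate NP from AF without overlap, Foxa2 overlaps in part, Sox5 overlaps throughout, and Noto stays at or below 0.155.

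Ordered by mean level, vehicle NP gave T (1399 ± 251), Sox9 (138 ± 30.7), Sox6 (73.7 ± 12.5), Sox5 (18.0 ± 3.24), Foxa2 (3.14 ± 0.595), Foxa1 (2.26 ± 0.505) and Noto (0.059 ± 0.059 scaled FPKM, SD, n = 5). Foxa1 and Foxa2 were the neighbours in that order, with values above 1, whose ranges overlapped. Vehicle AF kept the same order at T (304 ± 200), Sox9 (53.7 ± 15.3), Sox6 (42.6 ± 9.13), Sox5 (15.6 ± 2.37), Foxa2 (1.62 ± 0.499), Foxa1 (0.524 ± 0.257) and Noto (0.015 ± 0.021). There the ranges of Sox9 and Sox6 overlapped and those of the other neighbours above 0.1 did not. Among all genes tested, 21.8% were called higher in vehicle NP and 25.6% in MDL-800 NP. The 5 members called higher in each treatment (T, Foxa1, Foxa2, Sox9 and Sox6) are to be read beside those shares. As stated, Foxa1 was selected by its NP values and the Foxa2 call under MDL-800 was unsteady. For T, Foxa1, Sox9 and Sox6 every NP library lay above every AF library in both treatments. In that direction 15.1% of tested genes did not overlap in vehicle and 18.5% under MDL-800.

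**Figure D2:**
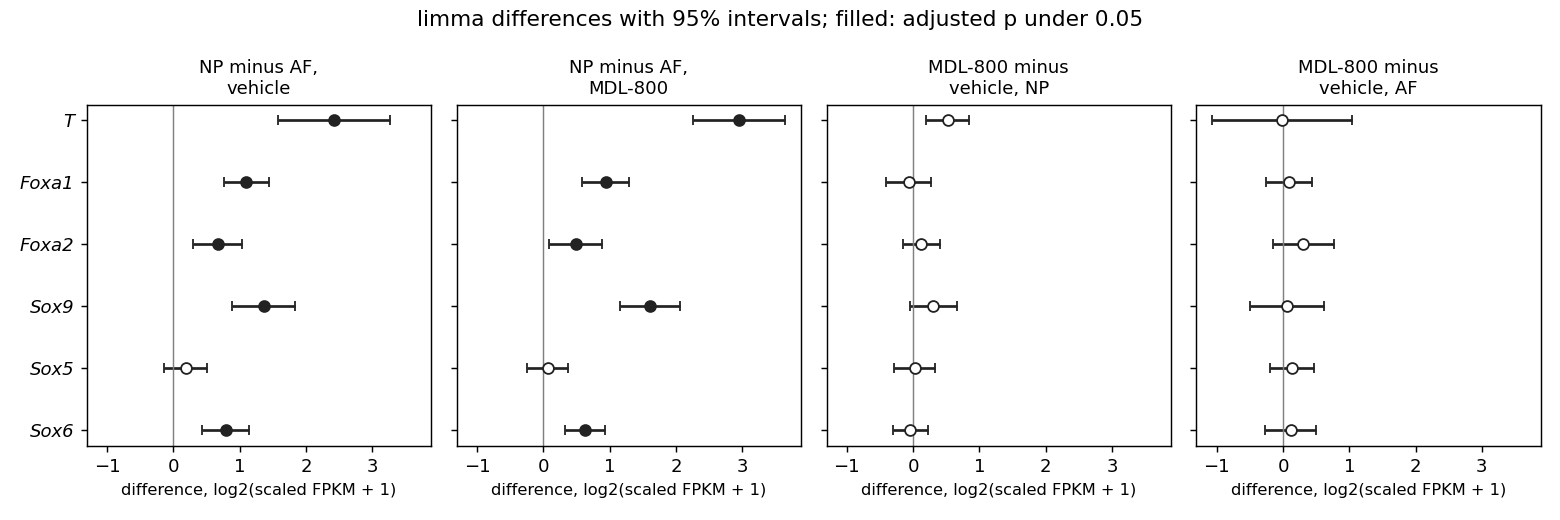
Difference on the log2(scaled FPKM + 1) scale (horizontal axis) for the 6 tested factors in the 4 comparisons, with limma 95% intervals; filled points have an adjusted p under 0.05. The tissue differences run from 0.07 for Sox5 under MDL-800 to 2.95 for T under MDL-800, and the treatment differences are all open points.

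The level of Sox5 relative to Sox9 was lower in NP than in AF, and that of Sox6 relative to Sox9 did not pass the test. Ratios of deposited FPKM within a library need no scaling between libraries. In vehicle NP the Sox5/Sox9 ratio was 0.208, 0.168, 0.0749, 0.131 and 0.114. In vehicle AF it was 0.260, 0.212, 0.226, 0.540 and 0.350. The highest NP ratio lay just under the lowest AF ratio. The mean log2 ratio, with 0.1 added to each FPKM, was lower in NP by 1.18 (exact two-sided permutation test, p = 0.0079, the smallest that 5 against 5 allows; 0.0476 after Benjamini-Hochberg adjustment over 6 ratio tests). Over 10 library omissions the difference ran from -1.35 to -0.97. The groups stayed apart in each, and the exact p was the smallest that 4 against 5 allows. Groups without overlap fix both of these in advance, so they say nothing about stability. Adjusted over the 6 tests, that smallest p is 0.0952, or 0.0476 in the 2 omissions where another ratio reached it too, so the adjusted value says nothing about it either.

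For Sox6/Sox9 the mean ratio was 0.572 ± 0.220 in vehicle NP and 0.825 ± 0.222 in vehicle AF (SD, n = 5). The log2 difference was -0.58 (exact permutation p = 0.0873, adjusted 0.175). NP library 1, at 0.907, had the highest ratio of its group and lay among the AF values. T/Sox9 was 10.5 ± 2.45 in vehicle NP and 5.60 ± 3.16 in vehicle AF, a log2 difference of 1.05 (exact permutation p = 0.0317, adjusted 0.0952). Here AF library 9, at 10.7, lay inside the NP range. MDL-800 did not move any of the 3 ratios in NP beyond the spread: the log2 differences from vehicle were -0.28, -0.35 and 0.22 for Sox5/Sox9, Sox6/Sox9 and T/Sox9 (exact permutation, adjusted p = 0.365 for each).

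**Figure D3:**
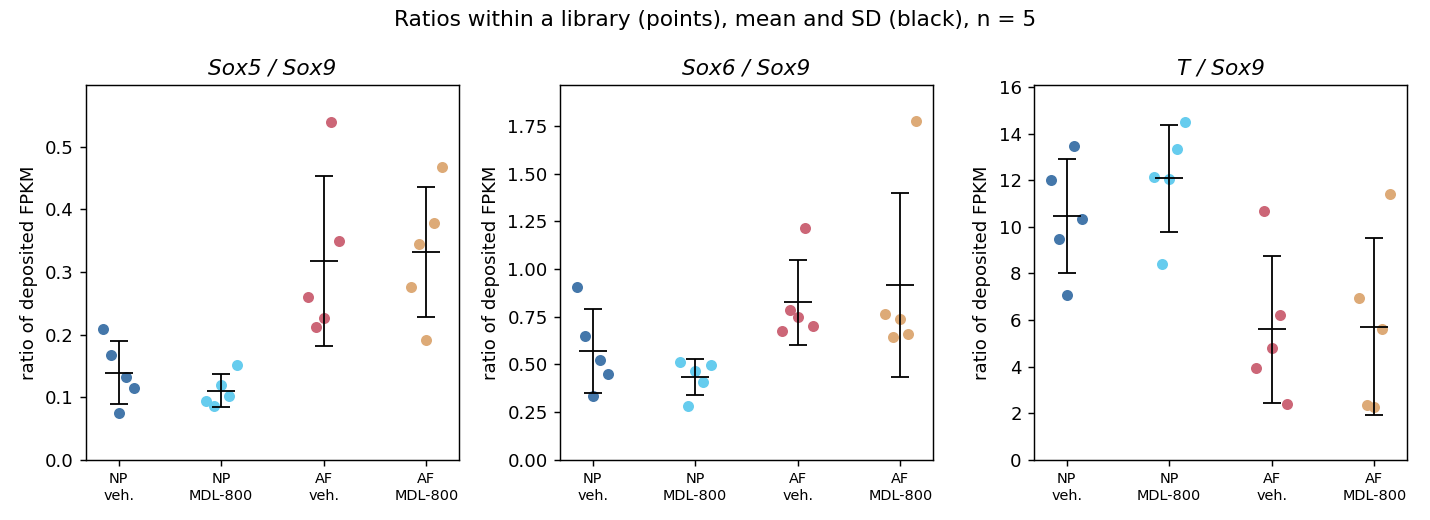
Ratio of deposited FPKM within each library (vertical axis) for Sox5/Sox9, Sox6/Sox9 and T/Sox9 by group, with mean and SD in black (n = 5). Sox5/Sox9 lies at or below 0.208 in vehicle NP and at or above 0.212 in vehicle AF, and single AF libraries stand at 1.22 and 1.77 for Sox6/Sox9.

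The AF values of the members were not spread alike over libraries. As a percentage of the NP mean of the same treatment, T in the vehicle AF libraries ran from 8.05% to 44.6% with a median of 15.2%. Krt8, a simple keratin of notochord-derived cells, ran from 9.68% to 47.9%, and Car3, a carbonic anhydrase abundant in NP, from 7.44% to 53.6%. AF library 9 was the highest of its group for T, Krt8, Krt18, Krt19, Cd24a and Car3. Sox9 in these libraries ran from 24.4% to 54.6%, Sox6 from 44.9% to 76.6% and Sox5 from 68.8% to 101%. AF library 9 was not the highest for any of these 3, nor for Foxa1 (7.51% to 35.5%) or Foxa2 (29.7% to 71.9%). Under MDL-800, AF library 25 was the highest for T (22.4%), Krt8 (33.6%), Krt18 (59.3%) and Krt19 (27.8%), and also for Foxa1 (37.9%) and Foxa2 (102%). Cd24a and Car3 were highest in library 30 instead (46.7% and 20.7%), against 45.6% and 20.2% in library 25. Library 25 was not the highest for Sox9, Sox5 or Sox6 either.

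Across the 10 AF libraries, T moved with the mean log2 level of 11 other genes of notochord-derived NP cells. That mean includes Nog and Car12, which were called lower in NP than in AF. Pearson's r was 0.96 (permutation p = 4.0e-05, adjusted 0.00072 over 18 relations) and Spearman's rho was 0.96 (adjusted permutation p = 0.00126). Without the 2 libraries farthest from the median, vehicle library 9 and MDL-800 library 25, r was 0.95, and it was 0.97 in the 5 vehicle and 0.98 in the 5 MDL-800 libraries. The 5 other tested members had r between -0.21 and 0.50 with the same list in AF, with adjusted permutation p of 0.522 or more. Without the same 2 libraries r was higher for Foxa1 (0.71) and Sox6 (0.56). It was -0.16 for Foxa2, -0.11 for Sox9 and 0.10 for Sox5, and these values carry no test. Foxa1 had r at 0.18 in the 5 vehicle and 0.64 in the 5 MDL-800 libraries. In the 10 NP libraries T had an r of 0.57 with the list (permutation p = 0.0880, adjusted 0.522), which fell to 0.28 without libraries 19 and 20. Within treatments the sign was not shared, with r at -0.69 in the 5 vehicle and 0.75 in the 5 MDL-800 libraries. How much NP tissue each AF library held was not measured, and its part in the AF levels of T was not tested.

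**Figure D4:**
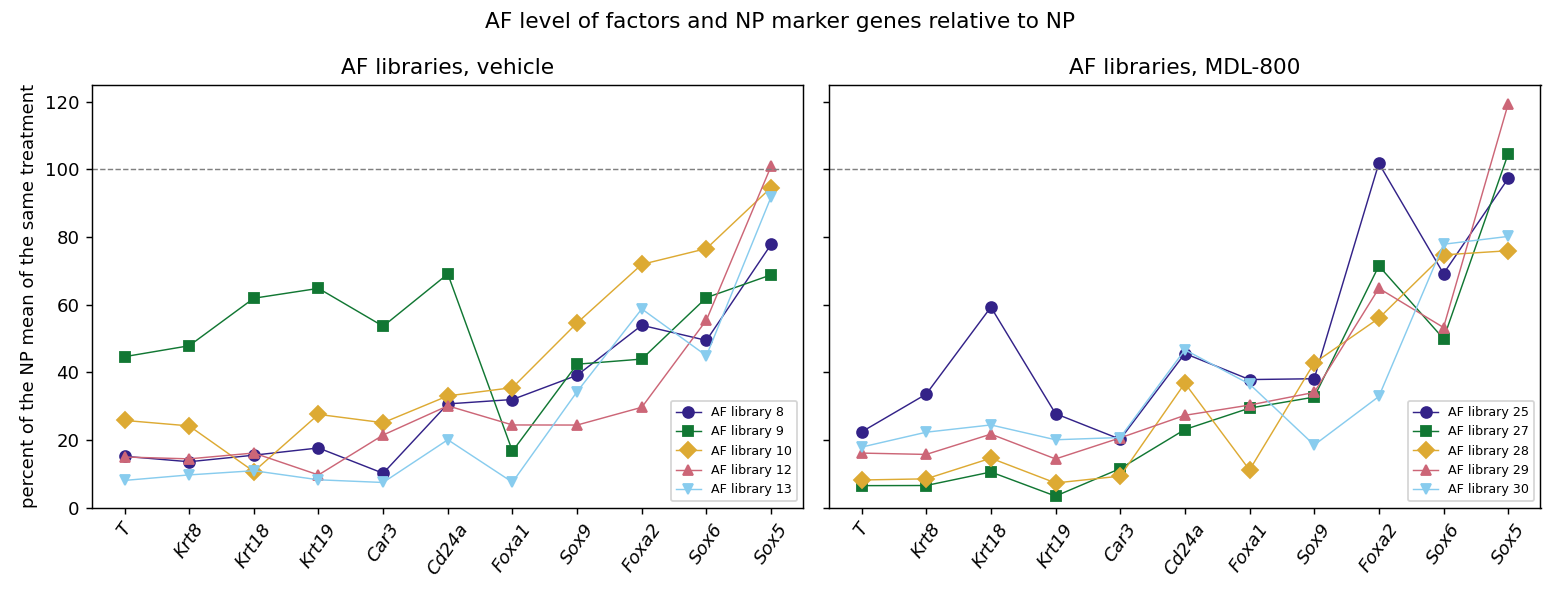
Level of each gene in each AF library as a percentage of the NP mean of the same treatment (vertical axis), with a line for each library. Vehicle library 9 is on top for T (44.6%), the keratins, Car3 and Cd24a, and Sox5 lies between 68.8% and 119% over both panels.

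The labels of the tissues were checked against markers. The AF list (Col1a1, Col1a2, Tnmd, Thbs4, Dcn, Fmod) was lower in vehicle NP for 5 of 6 genes, with Fmod not called, beside 33.9% of all genes tested. Tnmd reached 1 FPKM in 3 of the 10 NP libraries and passed the filter through its AF values. The list's summed scaled FPKM was 780 to 1578 in vehicle NP and 2998 to 9396 in vehicle AF. Genes of cells that lie around the disc were also at higher levels in AF. For 6 genes of hypertrophic or endplate cartilage the sum was 99.0 to 223 in vehicle NP and 1985 to 4774 in vehicle AF. For skeletal muscle it was 9.58 to 1012 against 846 to 7410, for red blood cells 39.7 to 157 against 565 to 1912, for neutrophils 183 to 2695 against 6364 to 16414, and for bone 9.84 to 93.5 against 248 to 1147. Every gene of these 5 lists was called lower in NP in both treatments, beside 33.9% of all genes tested in vehicle and 37.2% under MDL-800, and no gene of them was at 0 in all libraries of a group. Of these genes, 2 of the cartilage list and 3 of the bone list passed the filter through AF alone. The part of these cells in the tissue differences of the members was not tested.

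Genes downstream of the factors, or expressed beside them, followed no single direction. Of 11 genes of notochord-derived NP cells, 9 were called higher in vehicle NP and 2 lower, with a median difference of 1.88 against -0.08 over all genes tested. Of all genes tested, 21.8% were higher and 33.9% lower. Car3, Krt8 and Krt18 were each higher by 2.42, and Krt19 by 2.30 (limma adjusted p under 0.05 for each). The 2 lower genes were Nog at -1.33, a secreted BMP antagonist, and Car12 at -0.96, a carbonic anhydrase of the cell surface. Both reached 1 FPKM in 0 of the 10 NP libraries and were tested through their AF values alone. Under MDL-800, 8 were higher, 2 lower, and Shh, the hedgehog ligand of the notochord, was not called at 0.46 (adjusted p = 0.395), with a median of 2.09. There 25.6% of all genes tested were higher and 37.2% lower.

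Of 17 cartilage genes known as SOX9, SOX5 and SOX6 targets, 16 were in the table and 14 were tested. In vehicle libraries 2 were higher in NP, namely Acan, the proteoglycan core protein aggrecan, by 1.92 and Wwp2, a ubiquitin ligase whose gene hosts a microRNA of cartilage, by 1.15. In the same comparison 5 were lower, with Comp at -6.07, Cnmd at -4.33, Col9a2 at -3.26, Matn3 at -1.89 and Col27a1 at -1.88. Both counts stand near or under the background, where 21.8% of all genes tested were higher and 33.9% lower in vehicle NP. Col9a2 and Matn3 would not have passed the filter on their NP values. Col2a1, the collagen II gene, stood at 134 ± 56.0 scaled FPKM in vehicle NP and 387 ± 462 in vehicle AF (SD, n = 5) and was not called (-0.92, limma adjusted p = 0.224). The list's median was -0.76, while Sox9 itself was higher in NP. Under MDL-800, 2 of the 14 were higher and 10 lower, with a median of -1.30. Among all genes tested 25.6% were higher and 37.2% lower there, so the lower count stood above its background. Those 10 include Col9a2 and Matn3. Sox9 had no relation past the threshold with the mean level of these genes across libraries, with r = 0.25 in the 10 NP (permutation p = 0.483, adjusted 0.879) and r = 0.53 in the 10 AF libraries (permutation p = 0.116, adjusted 0.522).

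Other transcription factors of the disc were mostly lower in NP. Of 14 tested, 12 were lower in vehicle NP, 1 was higher (Zbtb20, by 0.62) and 1 (Trps1) was not called, with a median of -1.56. Among all genes tested 33.9% were lower and 21.8% higher. Pax1 (-4.18) and Pax9 (-2.51), paired-box factors of the sclerotome, and the forkhead factors Foxf1 (-2.44) and Foxc1 (-2.19) were the lowest. Of the 14, 7 would not have passed the filter on their NP values, 6 of them (Pax9, Foxf1, Runx3, Tbx18, Foxc2 and Nkx3-2) with no NP library at 1 FPKM, and the filter favoured a lower call for these. Among the other 7, 5 were lower (Foxc1, Runx2, Mkx, Sox4 and Scx), 1 was higher and 1 was not called. Pax1 stood at 0.730 ± 0.848 scaled FPKM in vehicle NP and 29.5 ± 10.8 in vehicle AF (SD, n = 5). Under MDL-800, 11 were lower and 1 higher, beside 37.2% and 25.6% of all genes tested. Of 13 relatives of the members by protein family, 6 passed the filter. Sox8, a close relative of Sox9, was higher in vehicle NP by 1.08, at 17.3 ± 2.23 against 7.79 ± 2.14 scaled FPKM (SD, n = 5). Tbx15 (-3.22), Sox13 (-1.34), Sox10 (-1.34), Tbx2 (-1.17) and Foxa3 (-0.86), the third FOXA factor, were lower. Those 5 passed the filter through AF, with 1 FPKM reached in 0 to 2 of the 10 NP libraries, so their count was favoured by the filter.

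**Figure D5:**
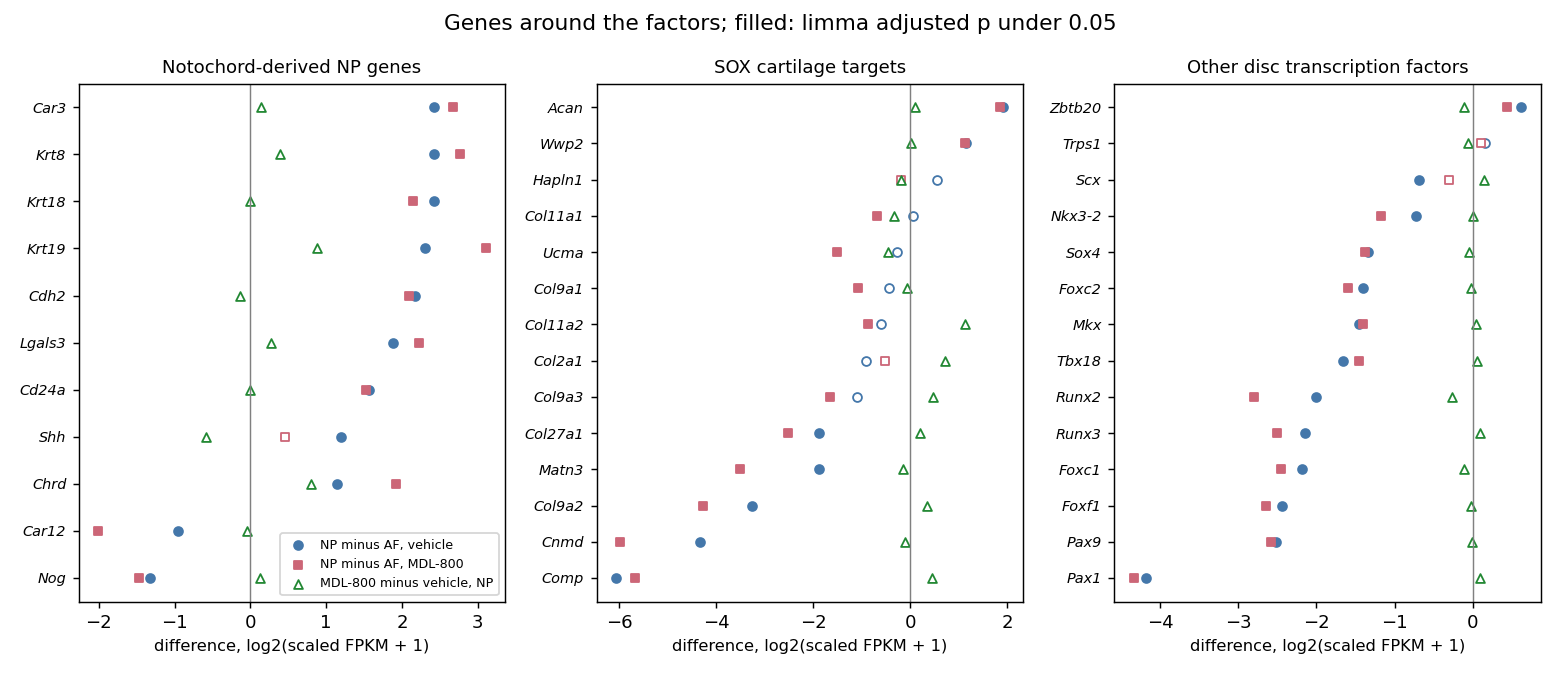
Difference on the log2(scaled FPKM + 1) scale (horizontal axis) of the tested genes in 3 lists, for NP minus AF in vehicle (circles), NP minus AF under MDL-800 (squares) and MDL-800 minus vehicle in NP (triangles); filled symbols have a limma adjusted p under 0.05. The keratins and Car3 lie above 2, Comp and Cnmd lie below -4, and every triangle is open.

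Long-term MDL-800 left none of the members past the threshold in NP, where 0.250% of all genes tested were called. At an unadjusted limma p under 0.05 there was 1 of the 6, T, beside 14.1% of all genes tested. T in the 5 MDL-800 libraries (1780.1 to 2328 scaled FPKM) lay above T in all 5 vehicle libraries (1193 to 1701), a state of 3.50% of tested genes in that direction. The difference was 0.52 (SE 0.15, 95% interval 0.20 to 0.85, limma adjusted p = 0.138) and did not pass. Over 19 other analyses its value ran from 0.35 to 0.60 and its adjusted p from 0.0923 to 0.673. Sox9 stood at 138 ± 30.7 in vehicle and 169 ± 27.8 scaled FPKM under MDL-800, with overlap (0.30, interval -0.05 to 0.66, adjusted p = 0.440). Foxa2 differed by 0.12 (interval -0.16 to 0.41), Sox5 by 0.02 (-0.28 to 0.32), Sox6 by -0.04 (-0.31 to 0.22) and Foxa1 by -0.07 (-0.41 to 0.27), with adjusted p of 0.723 or more. The count of genes called in NP was itself unsteady, at 41 with all libraries and 2 to 189 with a library left out.

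The dependence of a library's log2 values on the GC content of genes differed between the NP groups, most of all through vehicle libraries 1 and 2. Its slope per 10 points of GC content was -0.31 and -0.30 in these, and -0.05 to -0.01 in vehicle NP libraries 3, 5 and 6. The MDL-800 NP libraries had 0.03 to 0.10, without overlap with vehicle NP. In AF the groups overlapped, at -0.26 to 0.11 in vehicle and -0.12 to 0.15 under MDL-800. With the GC trend removed from each library, T differed by 0.46, Foxa1 by -0.47, Foxa2 by -0.24 and Sox6 by 0.03 for MDL-800 in NP, with limma adjusted p of 0.196 or more. The values of the forkhead genes thus moved further than their standard errors with this step, and no call arose from it.

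None of the genes of the 4 lists was called for MDL-800 in NP either. At an unadjusted limma p under 0.05 were 3 of 11 genes of notochord-derived cells and 3 of 14 SOX targets. Among all genes tested that share was 14.1%. In the 11 genes of notochord-derived cells the median difference was 0.12, against -0.03 over all genes tested. Chrd, a secreted BMP antagonist, stood at 11.3 ± 3.07 scaled FPKM in vehicle NP and 19.9 ± 2.21 under MDL-800 (SD, n = 5; difference 0.80, limma adjusted p = 0.0743). Krt19 differed by 0.88 (adjusted p = 0.141) and Krt8 by 0.39 (0.120). These 3 genes, named after their values were seen, were higher under MDL-800 without overlap, a state of 3.50% of tested genes. The SOX target Col11a2 was also higher without overlap, by 1.12 (limma adjusted p = 0.101). Col2a1 (0.71) and Col11a1 (-0.35), the further SOX targets at an unadjusted limma p under 0.05, overlapped. The medians of the SOX targets, the other disc factors and the family relatives were 0.06, -0.01 and 0.05.

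In AF, MDL-800 moved no member past the threshold, and 0.00% of all genes tested were called by limma. At an unadjusted p under 0.05 there were 0 of the 6 members and 1.65% of all genes. T differed by -0.01 with a wide interval of -1.07 to 1.04, and without AF library 9 by 0.31. Foxa2 stood at 1.62 ± 0.499 in vehicle AF and 2.28 ± 0.875 under MDL-800 (difference 0.30, interval -0.16 to 0.76). Sox5 differed by 0.14, Sox6 by 0.12, Foxa1 by 0.09 and Sox9 by 0.05, each with an interval that spans 0 and a limma adjusted p of 1. All 14 tested SOX target genes had a positive difference in AF, with a median of 0.67 against 0.01 over all genes, and none was called, with 4 at an unadjusted p under 0.05. The 6 genes of the bone list were all positive in the same comparison, at a median of 0.75, and the 6 genes of hypertrophic or endplate cartilage had a median of 0.30. The part of bone and endplate tissue in those values was not tested.

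The difference between the treatment effect in NP and that in AF was 0.53 for T (interval -0.56 to 1.63) and 0.25 for Sox9 (interval -0.40 to 0.90). For Foxa1, Foxa2, Sox5 and Sox6 it ran from -0.18 to -0.12. The limma adjusted p was 0.9997 for each, and 0.00% of genes tested were called for this contrast, with 0 of the 6 members at an unadjusted p under 0.05. The 2 tissue comparisons and the 2 treatment comparisons share libraries, so their values are set side by side only.

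Genes with the most similar pattern to each member were sought among 13703 tested protein-coding genes over the 20 libraries, which also share their tissue difference. For T they were Krt8, Itpr3, an IP3 receptor calcium channel, and Nck2, an adaptor protein, each with Pearson's r = 0.99. Within the 10 AF libraries these r values were 0.97, 0.93 and 0.97, and within the 10 NP libraries 0.81, 0.94 and 0.88. For Sox9 the nearest genes were Mtss1l (0.97), Srebf1, the sterol regulatory factor of lipid synthesis (0.96), and Phf13 (0.96), with 0.86, 0.85 and 0.70 within NP.

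Sox6 was nearest to Tcte2 (0.93), Myef2 (0.93) and Lrrc18 (0.92). Foxa1 was nearest to C77370 (0.94), St6galnac3 (0.93) and Pla2g2c (0.93), and Foxa2 to Ficd, Sec14l1 and Afap1l2 (0.89 each). Sox5, the member without a tissue difference past the threshold, had no gene above Styx at 0.74. Among the members themselves within the 10 NP libraries, Sox9 and Sox6 had an r of -0.71 and Foxa1 and Sox5 of -0.74. In the 10 AF libraries Sox9 and Sox6 had 0.18, Foxa1 and Sox5 0.32, and the highest pair was Foxa2 with Sox9 at 0.72. These values describe libraries that share tissue and processing, and carry no test.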

How the data were processed

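RNA from NP and AF was sequenced, per the labels' protocols, as stranded total RNA after ribosomal depletion, from 50 ng of RNA with 14 PCR cycles. STAR 2.7.11b and the build mm10 are named per the submitters' processing notes; the program that assigned fragments to genes, its use of strand and the annotation are not given in the sources used here. The authors deposited 1 table of FPKM values for 51789 genes, rounded to 2 decimals, with a column for each of the 20 libraries, all matched to samples by name.

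FPKM values are no counts, so no count model was used. Each library was divided by a factor (0.933 to 1.06), the median of its ratios to the mean library on a log scale, taken from the 11308 genes with a value of 1 or above throughout. Differences of log2(scaled FPKM + 1) were fitted on the whole table with limma 3.58.1 (lmFit, eBayes with trend; R 4.3.3), two-sided, with only the compared groups in the fit, and all 4 groups for the difference of treatment effects. The 16383 genes that reached 1 FPKM in 5 or more libraries were tested. The scripts were tested on simulated data. Exact and permutation tests (100000 resamples for relations) used scipy 1.17.1 in Python 3.11.15. Depth was estimated from low values of single-exon genes, so counting error is known only roughly.

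GENCODE M21 (GRCm38) holds 51596 of the gene identifiers and gave coordinates, gene types and GC content; sequences came from RefSeq. The members and gene lists were chosen with earlier results of these data known, and the relations across libraries were added after values were seen. All members are named; of each list, up to 4 called genes with the largest change, beside further genes that make up a small count, which were chosen after their values were seen; for likeness, the 3 genes with the highest r. The headers of NP and AF columns share a second number of unstated meaning. Same-numbered libraries had correlations of -0.18 to 0.29 over 5 vehicle pairs and -0.18 to 0.17 over 3 MDL-800 pairs. They were not treated as pairs, though correlations over so few pairs cannot exclude a shared mouse. Alternatives were other pseudocounts, scalings, filters, fits, removal of the GC trend and the omission of each library. Snorc was not matched in the table by symbol.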

Additional observations from a re-analysis of the deposited data

Results flagged for a closer look

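In each group of 5 libraries, a library was singled out when its gap to the nearest of the others took up an unusually large share of the group's range. Of 40 groups examined, 3 held such a library, and chance alone gives about 1 in 20. Foxa1 stood at 3.13 scaled FPKM in vehicle NP library 3, while the other 4 libraries lay between 1.92 and 2.26. The Sox6/Sox9 ratio was 1.22 in vehicle AF library 12, against 0.676 to 0.783 in the others. The same ratio was 1.77 in MDL-800 AF library 30, against 0.645 to 0.766. In both AF libraries Sox9 was the lowest value of its group, at 33.7 and 31.2 scaled FPKM, while Sox6 stood at 40.9 and 55.4.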

How the results depend on the processing

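In vehicle libraries the calls of T, Foxa1, Foxa2, Sox9 and Sox6 held in all 20 other analyses, with 5 or 6 members called, the added one being Sox5 after quantile normalization. With the header number as a replicate block, 5 members were called in vehicle and 3 instead of 5 under MDL-800. Only 3 pairs entered there, and Foxa2 (limma adjusted p = 0.0586) and Sox6 (0.0616) were lost. What the number marks is not stated, and weak correlations over so few pairs cannot exclude a shared mouse. Foxa2 under MDL-800 also lost its call in 6 of 10 library omissions, where the difference ran from 0.35 to 0.62. Quantile normalization turned the split of all vehicle tissue calls from 3577 higher and 5550 lower to 6310 and 4194, and removal of the GC trend to 4781 and 4982; the cause was not tested. Directions turned for values near 0: Sox5 between tissues under MDL-800 was -0.010 with FPKM as deposited, and with the GC trend removed Foxa2 was -0.24 and Sox6 0.029 for MDL-800 in NP. With a library left out, Sox5 between tissues under MDL-800 ran from -0.0030 to 0.15. For MDL-800 in NP, omissions gave -0.17 to 0.027 for Foxa1, -0.077 to 0.10 for Sox5 and -0.12 to 0.033 for Sox6. For MDL-800 in AF they gave -0.31 to 0.31 for T and -0.10 to 0.25 for Sox9. Noto between tissues under MDL-800 ran from -0.015 to 0.040. Among the ratios between tissues in vehicle, omissions gave -1.35 to -0.97 for Sox5/Sox9, which lost its call in 8 of 10 because the smallest p of 4 against 5 adjusts to 0.0952 unless another ratio reaches it too, and -0.76 to -0.40 for Sox6/Sox9 and 0.78 to 1.32 for T/Sox9, which passed without NP library 1 and without AF library 9, respectively. Each was the library of its group that lay among the other group's values, so those passes follow from leaving it out and show nothing of stability. MDL-800 in NP called 4 genes in all with all 4 groups in the fit. Depth limits Noto above all, whose values are worth a few fragments, and the low levels of Foxa1 and Foxa2, whose log2 differences depend on the pseudocount.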
